A study of Mus musculus with 3 samples.

Results

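Tubulin isotypes and the proteins that bind microtubules were followed across mouse cells that had been sorted into 3 gates of green fluorescent protein (GFP). The 10 genes were chosen by name: the structural microtubule-associated proteins (MAPs) Mapt, Map2 and Map1b, the doublecortin gene Dcx, the alpha-tubulin gene Tuba1a and the beta-tubulin genes Tubb2a, Tubb2b, Tubb3, Tubb5 and Tubb6. All 26 probes that the platform annotation gives these symbols were used, of 25697 probes and 16593 named genes on the bead array. The cells came from Hb9-GFP mouse embryonic stem cells, a reporter line in which GFP follows Hb9, the motor neuron factor encoded by Mnx1. They had been kept on feeders and turned into motor neurons as embryoid bodies exposed to retinoic acid and the Hedgehog agonist purmorphamine, which all 3 populations share. The GFP high group, named motor neurons in the labels, the GFP low group and the GFP negative group had 1 array apiece, so no difference below has a replicate check, a test or a p-value.

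Microtubules are polymers of alpha- and beta-tubulin dimers, and vertebrates carry several genes for each, called isotypes, that differ mostly in their carboxy-terminal tails. Growing axons and dendrites are built on stable microtubule bundles. Tau, encoded by Mapt, binds axonal microtubules, MAP2 is found mainly in dendrites and cell bodies, MAP1B acts in growing axons, and doublecortin binds the lattice in young migrating neurons. Tubb3 is a widely used neuronal isotype, and Tuba1a and Tubb2b are abundant in newborn neurons, whereas Tubb5 and Tubb6 are expressed in many cell types.

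Detection was set at a detection p-value under 0.01, which ranks a probe among control probes of its array. Of the 26 member probes, 18 were detected on at least 1 array and they covered 8 of the 10 genes. The number detected of those listed was 5 of 6 for Tubb2b, 1 of 2 for Tubb5, 1 of 1 for Tubb6, 1 of 1 for Tuba1a, 1 of 4 for Mapt, 3 of 3 for Map2, 4 of 4 for Map1b and 2 of 3 for Dcx. Signals are given as background-corrected, normalized log2 values, and a gene is represented by its brightest probe unless a probe is named. A log2 difference of 1 is 2-fold. A high-to-negative ratio is the linear ratio of GFP high to GFP negative signal, and the low-to-negative and high-to-low ratios are formed likewise. The log2 scale has an offset of 16, which draws the folds of dim probes toward 1.

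The arrays were alike in brightness, with a median non-normalized signal of 105.3 to 109.9 and 11689 to 11736 detected probes. The sort was checked on marker genes. All 6 motor neuron markers were detected on all 3 arrays and had high-to-negative ratios of at least 2, with a median log2 difference of 4.13. Of 6 general neuronal markers, 5 were at least 2-fold higher, with a median of 2.04. All 4 detected markers of dividing cells were lower in GFP high cells by at least 2-fold, with a median of -2.38. All 7 neural progenitor markers were lower, 6 of them by at least 2-fold, or 5 with undetected genes at their bound. Fibroblast or feeder markers were detected for 3 of 7 genes and endoderm markers for 2 of 5, all 5 highest in the GFP negative array. The detected feeder markers were Sparc, Fbln1 and Acta2, the last by its brightest probe in GFP negative cells only. Col1a1, Col1a2, Col3a1 and Thy1 were not detected on any array. The detected endoderm markers were Gata6 and Sox17. The summed non-normalized signal of the detected feeder markers was 446, 846 and 2856 in GFP high, low and negative cells. Sparc alone read 2017 in GFP negative cells. For the detected endoderm markers the sums were 195, 213 and 439. These sums still hold a background of 93.4 to 96.1 per probe, and 0 endoderm markers were detected in GFP high or GFP low cells. In such bulk samples fewer cells of a type and less RNA per cell cannot be told apart, and the part of this mixture in the differences below was not tested.

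Technical spread was gauged from 2370 genes that had 2 or more detected probes, by setting the brightest against the next. For 1 probe the standard deviation (SD) of the log2 difference came to 0.33 between GFP high and negative cells, 0.26 between GFP high and low cells and 0.29 between GFP low and negative cells. It covers the choice of probe and nothing that all probes of an array share.

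The microtubule-associated proteins read higher in both GFP-positive populations than in GFP negative cells by their brightest probes. Tau had the largest difference of any member. Its probe ILMN_2740020 read 10.28 in the high gate, 10.42 in the low gate and 8.05 in the negative gate on the log2 scale. GFP high and GFP low cells lay close together and far above the GFP negative array. The high-to-negative ratio was 4.70 and the low-to-negative ratio 5.14, while GFP low exceeded GFP high by 1.09-fold, a difference within the SD between probes. The other 3 Mapt probes were not detected. One of them, ILMN_3107817, stood just outside the limit, with a detection p-value of 0.010 in the high gate, 0.031 in the low gate and 0.117 in the negative gate. Its non-normalized signals were 110.9, 110.9 and 102.1 in that order of gates.

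Map2 was also higher by every probe. Its brightest probe, ILMN_3137552, read 11.35 in the high gate, 11.07 in the low gate and 10.33 in the negative gate, a high-to-negative ratio of 2.03. The order was high, low, negative, with the step from negative to low larger than the step from low to high. The 2 dimmer probes gave larger differences. ILMN_2709782 read 7.48, 7.17 and 5.59, a ratio of 3.69. ILMN_1226553 read 7.08 and 6.46 in GFP high and low cells, a high-to-low ratio of 1.53. It was not detected in GFP negative cells, where the fold is at least 3.83. The ratio of the brightest probe lay so near 2 that the log2 difference was 0.97 with median scaling, 0.98 without normexp background correction and 1.00, just under the limit, with an offset of 50.

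Map1b showed the opposite dependence on the probe. Its brightest probe, ILMN_2737867, read 10.59 in the high gate, 10.26 in the low gate and 9.49 in the negative gate, a high-to-negative ratio of 2.14. The 3 dimmer probes did not reach 2-fold. ILMN_2750248 had a high-to-negative ratio of 1.44 and ILMN_2932081 one of 1.39. The latter read 6.42 in the high gate, 5.82 in the low gate and 5.94 in the negative gate. Its low gate thus stood lowest, and GFP high minus GFP low was 0.60. The mean over all 4 probes gave a log2 difference of 0.42 in place of 1.09. ILMN_2932078 went the other way, with log2 signals of 5.51, 5.18 and 5.94, and was highest in GFP negative cells, 1.35-fold above GFP high cells. That probe lay near the lowest signal of any detected probe, 5.13 on the GFP high array. Whether the Map1b probes read different transcript ends or variants was not tested.

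Doublecortin was higher in both GFP-positive gates by both detected probes. ILMN_1228206 read 11.61 in the high gate, 11.39 in the low gate and 10.19 in the negative gate. ILMN_2931623 read 10.72, 10.79 and 9.68 in the same order. Against GFP negative cells the folds were 2.68 and 2.06 in GFP high cells and 2.29 and 2.15 in GFP low cells. The probes differed in which positive gate was higher, by 0.22 and -0.06 for GFP high minus GFP low, both within the SD of 0.26.

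**Figure D1:**
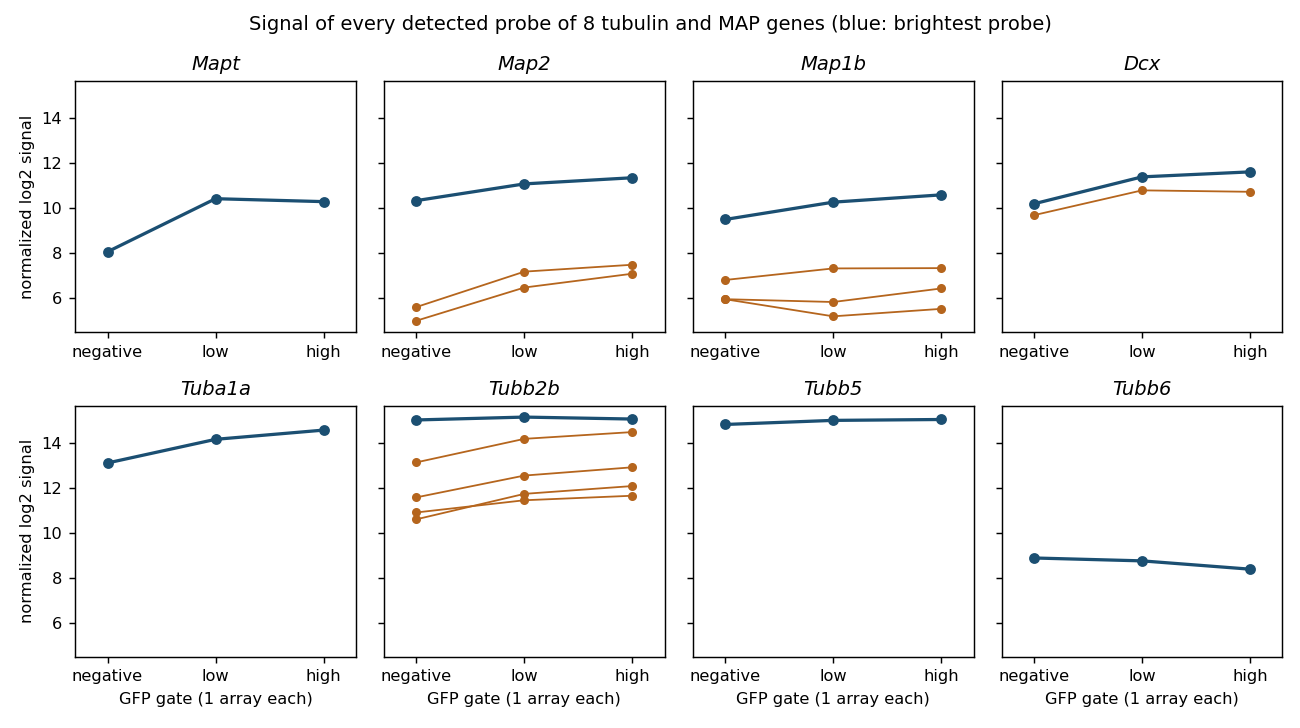
Normalized log2 signal (y axis) of each detected probe in GFP negative, low and high cells (x axis), 1 array each, for 8 genes, with the brightest probe of a gene in blue and its other detected probes in brown. Mapt goes from 8.05 in GFP negative to 10.42 in GFP low cells and stays level at 10.28 in GFP high cells, and the uppermost Tubb2b line is flat while 4 lines under it climb.

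Among the tubulins, Tuba1a was measured by 1 probe, which read 14.57 in the high gate, 14.15 in the low gate and 13.10 in the negative gate. The non-normalized signals were 21310, 18621 and 9090. The high-to-negative ratio was 2.76 and the low-to-negative ratio 2.07. The high-to-low ratio of 1.33 was the widest among the members' brightest probes in that direction.

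Tubb2b had 5 detected probes, and the brightest disagreed with the rest. ILMN_1377919 read 15.06, 15.15 and 15.02 in GFP high, low and negative cells, a high-to-negative ratio of 1.03. Its non-normalized signals of 33975, 35291 and 33642 placed it 4th, 1st and 6th of all probes on those arrays, whose highest signals were 36901, 35291 and 36753. The next 3 probes all passed 2-fold. ILMN_2588051 read 14.48, 14.18 and 13.13, ILMN_1221835 read 12.91, 12.54 and 11.57, and ILMN_2598715 read 12.08, 11.73 and 10.59. Their high-to-negative ratios were 2.55, 2.53 and 2.79, and their low-to-negative ratios 2.07, 1.96 and 2.19. The last, ILMN_2825574, read 11.64, 11.44 and 10.90, a high-to-negative ratio of 1.68. Counted by its second brightest probe, a choice made after its values were seen, Tubb2b had a log2 difference of 1.35 between GFP high and negative cells in place of 0.04.

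Tubb5, an isotype of dividing and neural cells alike, also sat at the top of the range. Its detected probe, ILMN_1227164, read 15.04 in the high gate, 15.00 in the low gate and 14.82 in the negative gate, with non-normalized signals of 33242, 32443 and 30907. The high-to-negative ratio was 1.17, between readings that ranked 5th of all probes in the high gate, 7th in the low gate and 15th in the negative gate. On each array 10 to 16 probes exceeded a signal of 30000, so these readings lay among the highest on their arrays, and the part of that position in the small Tubb5 and Tubb2b differences was not tested. In the authors' deposited value table the high-to-negative ratio was 1.63 for Tubb5 and 1.54 for the brightest Tubb2b probe. Over the 50 brightest probes of the array, the median log2 difference was -0.19 in the non-normalized signal, 0.00 after normalization here and 0.31 in the authors' deposited value table. The largest normalized difference among these 50 probes was 2.69 in size.

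Tubb6 was the single detected member with a high-to-negative ratio under 1 by its brightest probe. ILMN_2718217 read 8.37 in the high gate, 8.74 in the low gate and 8.87 in the negative gate. GFP high cells stood 1.41-fold below GFP negative and 1.29-fold below GFP low cells. The log2 differences of -0.50 and -0.37 exceed the SDs of 0.33 and 0.26 between probes and fall short of 2-fold. The GFP low array differed from the GFP negative array by -0.13, within the SD of 0.29.

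Tubb3 and Tubb2a were not detected on any array at the limit of 0.01. Some probes of detected members also went undetected on every array, such as Tubb5 ILMN_1217584 and Dcx ILMN_1256251. A single undetected probe therefore does not show that a transcript is absent. The single Tubb3 probe had non-normalized signals of 98.9, 114.2 and 96.5 in GFP high, low and negative cells, against an estimated background of 93.4, 96.1 and 95.4. Its detection p-values were 0.150, 0.013 and 0.363, so the GFP low array came closest to detection. The single Tubb2a probe had signals of 91.6, 99.2 and 92.0 and detection p-values of 0.580, 0.264 and 0.709. At a detection p-value under 0.05, the alternative limit, the Tubb3 probe would count as detected in GFP low cells and the Tubb2a probe on no array. In the authors' deposited value table the Tubb3 probe stood at 16.9 in GFP low cells and at the floor of 10 in the other gates. Tubulin genes are close in sequence, and whether a probe of one isotype also reads another, such as Tubb2b and Tubb2a or Tuba1a and Tuba1b, was not tested.

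**Figure D2:**
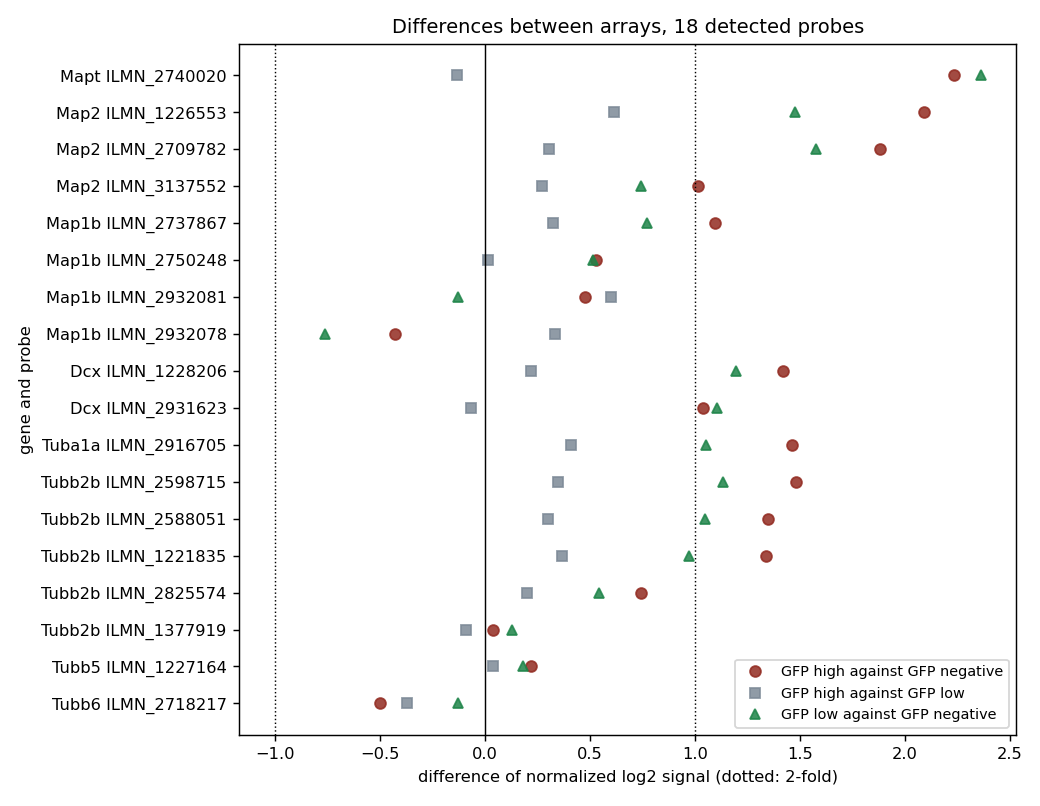
Difference of normalized log2 signal (x axis) for each of the 18 detected member probes (y axis) in the 3 comparisons, with dotted lines at 2-fold. GFP high against negative reaches 2.23 for Mapt, no probe passes 2-fold for GFP high against low, and the brightest Tubb2b probe stays at 0.04 while 3 others lie between 1.34 and 1.48.

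Counted by gene, 5 of 8 detected members were 2-fold or more above GFP negative cells in the GFP high gate and 0 were 2-fold or more below, beside 6.99% and 9.88% of all 8613 genes detected on either array. The members' median log2 difference was 1.06, beside 0.02 over all those genes, and 0.62 when the undetected Tubb3 and Tubb2a were kept. The 5 were Mapt, Tuba1a, Dcx, Map1b and Map2, the last 2 close to the limit at 1.09 and 1.02. Counted by probe, 11 of 18 were above by that margin and 0 below, beside 7.27% and 9.06% of 11837 detected probes with a named gene. Probes of a gene share its transcripts and are not replicates.

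GFP low cells already carried most of this difference. Against GFP negative cells, 3 of 8 members were higher in GFP low cells by at least 2-fold and 0 lower, beside 3.37% and 2.68% of 8516 genes, with a median of 0.76 beside -0.02. The 3 were Mapt, Dcx and Tuba1a. By probe the counts were 8 and 0 of 18, beside 3.31% and 2.33%. Against GFP low cells, 0 of 8 members reached 2-fold in either direction, beside 1.10% of 8427 genes higher and 4.17% lower in GFP high cells. By probe 0 of 18 did, beside 1.03% and 3.79%, with log2 differences from -0.37 to 0.62. The members' median by gene was 0.13, beside 0.03 over all genes, and their brightest probes ranged from -0.37 for Tubb6 to 0.41 for Tuba1a. Motor neuron markers had a median of 3.05 in the same comparison. These comparisons share arrays, so they are not independent of each other.

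A share of the log2 rise from GFP negative to GFP high cells was formed for some member probes. These were detected on all 3 arrays and at least 2-fold apart between those gates, so other member probes have no share. By brightest probe, GFP low cells stood at 70.4% for Map1b, 71.9% for Tuba1a, 73.1% for Map2, 84.3% for Dcx and 105.8% for Mapt. The 3 Tubb2b probes past 2-fold stood at 72.5% to 77.6%. The same share among the 6 general neuronal markers was 36.3% for Gap43, 59.3% for Elavl4, 68.1% for Nefm, 79.5% for Stmn2, 98.4% for Elavl3 and 107.2% for Syt1, so the shares of the 5 members lay within the range of these markers.

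**Figure D3:**
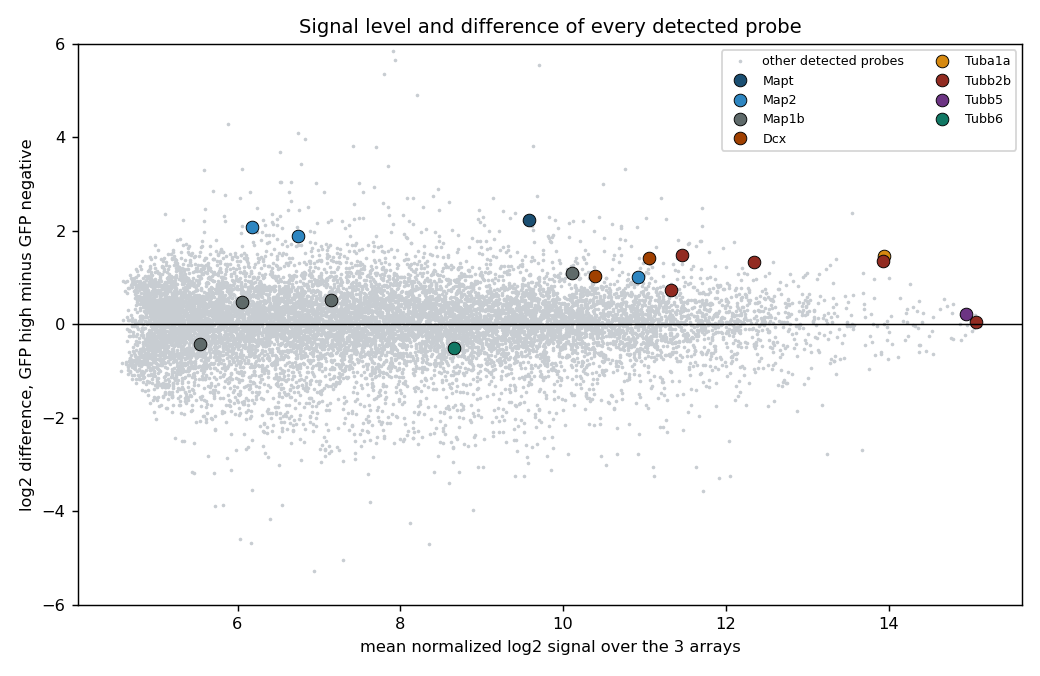
Mean normalized log2 signal over the 3 arrays (x axis) against the log2 difference of GFP high minus GFP negative cells (y axis) for every detected probe (grey) and the 18 member probes (coloured by gene). The brightest Tubb2b probe and the Tubb5 probe sit at the right edge, at differences of 0.04 and 0.22, and the other detected Tubb2b probes lie to their left and higher.

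To show what lies in front of the members that were higher together, the 250 bases before the annotated start are given for Tuba1a, Map2, Map1b and Dcx, and for Tubb5 as a member whose 1 detected probe did not pass 2-fold. RefSeq windows on GRCm38.p6 were matched by symbol and used for 7 of the 10 genes. Mapt, Tubb2b and Tubb6 had no window here, and member windows on 1 chromosome were left out. Capitals mark the TATA box searched as TATAAA and the GC box searched as GGGCGG, each on either strand. Dcx has 2 annotated starts 95 bases apart, and the upstream one is shown.
Tuba1a, chr15:98953502-98953751, minus strand: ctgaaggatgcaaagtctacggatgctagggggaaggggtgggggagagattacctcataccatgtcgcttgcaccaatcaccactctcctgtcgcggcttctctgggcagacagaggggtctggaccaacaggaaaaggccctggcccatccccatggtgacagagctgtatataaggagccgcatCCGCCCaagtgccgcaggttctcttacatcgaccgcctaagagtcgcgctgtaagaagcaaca
Map2, chr1:66175079-66175328, plus strand: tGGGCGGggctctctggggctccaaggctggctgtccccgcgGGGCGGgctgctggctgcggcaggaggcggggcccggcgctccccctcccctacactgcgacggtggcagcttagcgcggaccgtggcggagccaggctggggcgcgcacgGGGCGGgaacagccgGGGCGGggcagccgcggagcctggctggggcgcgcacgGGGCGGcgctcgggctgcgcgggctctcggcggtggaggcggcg
Map1b, chr13:99516603-99516852, minus strand: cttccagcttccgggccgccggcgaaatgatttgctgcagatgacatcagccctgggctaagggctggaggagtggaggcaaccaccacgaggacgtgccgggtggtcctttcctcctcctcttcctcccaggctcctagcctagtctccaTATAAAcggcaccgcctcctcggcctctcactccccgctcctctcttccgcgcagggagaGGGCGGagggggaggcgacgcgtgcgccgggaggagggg
Dcx, chrX:143933220-143933469, minus strand: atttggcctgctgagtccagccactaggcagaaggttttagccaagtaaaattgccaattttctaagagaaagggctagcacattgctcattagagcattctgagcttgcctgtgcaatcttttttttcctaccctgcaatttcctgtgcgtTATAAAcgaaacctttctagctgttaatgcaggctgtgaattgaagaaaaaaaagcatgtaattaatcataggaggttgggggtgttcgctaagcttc
Tubb5, chr17:35838302-35838551, minus strand: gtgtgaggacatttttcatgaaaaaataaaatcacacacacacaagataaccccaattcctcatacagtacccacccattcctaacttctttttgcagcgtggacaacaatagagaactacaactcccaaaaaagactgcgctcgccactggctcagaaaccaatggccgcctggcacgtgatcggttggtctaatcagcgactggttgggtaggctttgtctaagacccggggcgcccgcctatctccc
These windows differed in GC content and in the boxes marked. Map2 held the GC box 5 times with a GC content of 81.2%, beside a median of 52.4% over all windows, and no TATA box. Dcx held 1 TATA box and no GC box, with a GC content of 41.6%, and Map1b held 1 of each. Tuba1a held 1 GC box and no exact TATAAA, although its window includes the letters tatataa. Tubb5 held neither box. Of 32851 windows of this length, 32.7% held the GC box and 12.4% the TATA box. The E-box core bound by proneural factors, searched as CANNTG, occurred once in Tuba1a, Map1b and Tubb5 and not in Map2 or Dcx, beside 66.2% of all windows. CCAAT, searched likewise, had 1 match in Tuba1a, 1 in Dcx and 2 in Tubb5, and none in Map2 or Map1b, beside 33.8% of all windows. These matches describe letters anywhere in a window, at no set distance from the start, and no measured binding.

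Wider lists of microtubule genes were set beside the members. Of 105 listed genes, 87 had a probe and 62 were detected in GFP high or GFP negative cells. GFP high cells exceeded GFP negative cells by at least 2-fold in 13, or 12 with undetected genes at their bound, and fell short of them by as much in 14, or 12 with bounds, beside 6.99% and 9.88% of all genes. The median log2 difference was 0.02. Against GFP low cells 0 of 59 were higher and 8 lower in GFP high cells, beside 1.10% and 4.17% of all genes. In GFP low cells 8 of 60 were higher and 0 lower than in GFP negative cells, beside 3.37% and 2.68%. The same shares are the background for the counts of the single lists. Without normexp the counts for GFP high against negative were 7 higher and 7 lower. The direction varied from list to list.

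The largest upward difference was that of another tubulin gene, Tubb4a. Of 9 detected, 4 had high-to-negative ratios of at least 2 and 1 was lower by as much, with a median log2 difference of 0.63. This beta-tubulin of neurons and oligodendrocytes read 9.32, 8.73 and 6.80 in GFP high, low and negative cells, a high-to-negative ratio of 5.73. Tuba3a, an alpha-tubulin known for its expression in testis, read 8.19, 7.67 and 6.29, a ratio of 3.72. The gamma-tubulin gene Tubg2 had a high-to-negative ratio of 3.09 and a low-to-negative ratio of 2.66, whereas its relative Tubg1, the nucleating gamma-tubulin of dividing cells, read 10.04, 10.04 and 10.06. Tuba1b, a widely expressed alpha-tubulin, read 15.10, 15.10 and 15.15, at the top of the range like Tubb5.

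Other lattice-binding MAPs split. Of 11 detected, 3 had high-to-negative ratios of at least 2 and 2 were lower by as much, or 1 when bounds were used. The median log2 difference was 0.67, or 0.24 with bounds and 0.28 without normexp. Map6, which stabilises neuronal microtubules, had a ratio of 3.74, with log2 signals of 7.31, 6.59 and 5.41 in GFP high, low and negative cells. Among plus-end and minus-end proteins 2 of 7 were higher and 0 lower, led by Nav1, a neuron navigator, at 2.86-fold. Their median was 0.69, falling to 0.27 without normexp. Tubulin-modifying enzymes had 3 of 9 higher, or 2 when bounds were used, and 0 lower. Their median was 0.42, or 0.39 with bounds. Their largest difference was that of Atat1, the alpha-tubulin acetyltransferase, at 9.65, 9.41 and 7.87, a high-to-negative ratio of 3.43 and a low-to-negative ratio of 2.90. The 6 detected tubulin folding cofactors had 0 higher and 0 lower, and the widest difference was 1.38-fold, for Tbca, lower in GFP high cells.

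Genes of mitotic microtubules were lower in GFP high cells. Of 7 detected spindle proteins, 6 stood at least 2-fold below GFP negative cells in the GFP high gate, or 5 when bounds were used, and 0 above. The median was -1.92, or -1.11 without normexp. Kif2c, a kinesin that depolymerises microtubules, read 7.89, 9.69 and 10.20 in GFP high, low and negative cells, 4.96-fold lower in the GFP high than in the GFP negative gate. Nusap1, a spindle-binding protein, read 9.08, 10.85 and 11.23 and was 4.43-fold lower. Fignl1, of the family of microtubule severing ATPases and known for its role in DNA repair, was 5.39-fold lower, while the other 3 detected severing genes were between 0.10 and 0.72 higher on the log2 scale. Genes of the gamma-tubulin complex and nucleation had 4 of 9 lower and 1 higher, with a median of -0.83, led by Haus6, an augmin subunit, at 3.10-fold lower. The 4 dividing-cell markers moved with these lists, and their part in them was not tested.

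The spindle list was also followed step by step. Between GFP low and GFP negative cells 0 of 7 spindle proteins reached 2-fold, with a median of -0.42. Between GFP high and GFP low cells 5 of 6 were lower by at least 2-fold, with a median of -1.59, led by Kif2c at 3.48-fold, Nusap1 at 3.41-fold and, among severing genes, Fignl1 at 3.18-fold. The members had medians of 0.76 and 0.13 for the same steps. Whether the members and the spindle list differ in their steps was not tested.

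**Figure D4:**
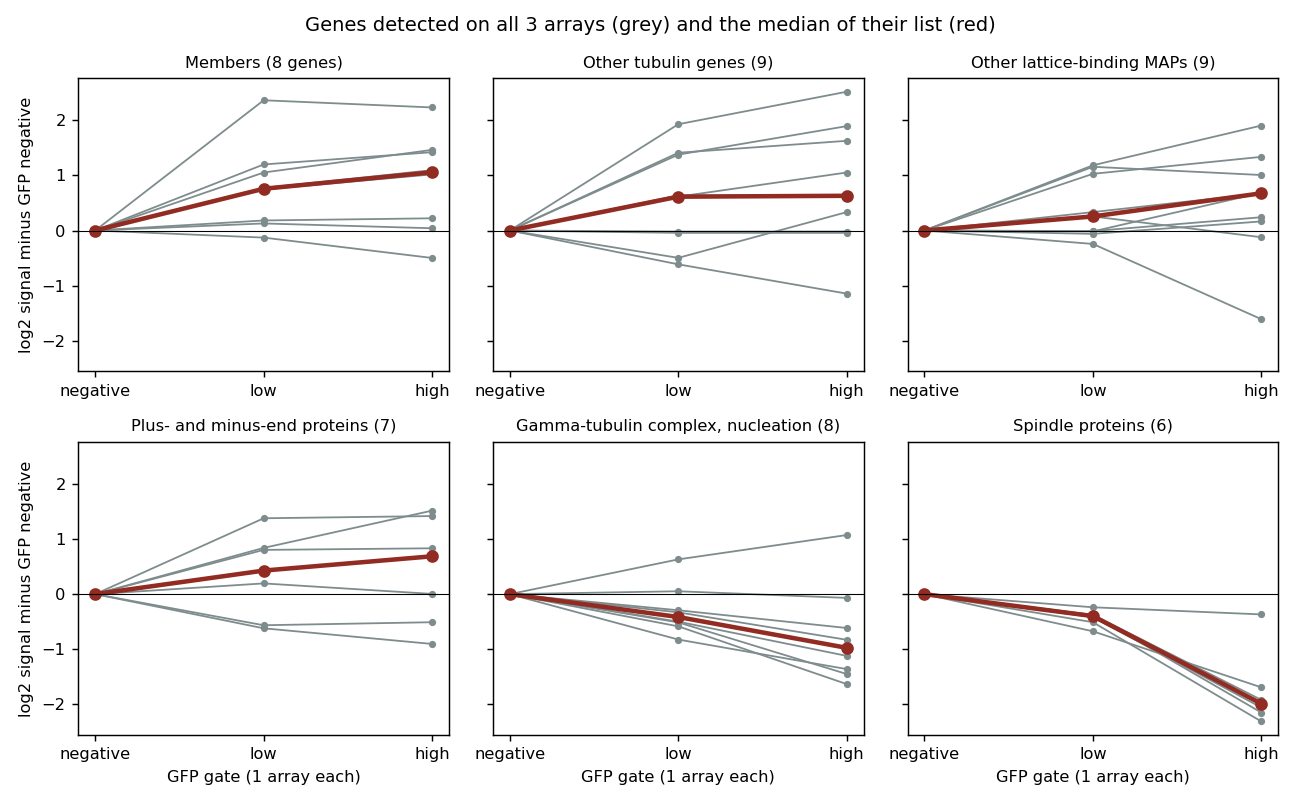
Normalized log2 signal minus that of the GFP negative array (y axis) in the 3 gates (x axis, 1 array each) for genes detected on all 3 arrays (grey) and the median of each list (red). The member median is 0.76 in GFP low and 1.06 in GFP high cells, while the spindle median is -0.40 in GFP low and -1.99 in GFP high cells.

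The genes whose 3 log2 signals, centred on their own mean, lay nearest to a member were found among 7456 other genes detected on all arrays. Likeness over 3 arrays is a weak measure, and many genes can fit. Within a distance of 0.25 there were 464 genes for Map2, 396 for Map1b, 138 for Tuba1a, 107 for Dcx and 3 for Mapt. The nearest to Mapt were Slc32a1, the vesicular GABA and glycine transporter, at 0.05, the sulfotransferase gene Chst8 at 0.08 and the somatostatin gene Sst at 0.18. Slc32a1 read 12.00, 12.06 and 9.73 in GFP high, low and negative cells. The nearest to Dcx were Shisa2, Nkain1 and Car11, to Tuba1a Inpp5f, Chmp1b and Sh2b2, to Map2 Grina, Vmac and Chga, and to Map1b Trim36, Fem1c and Rab21, each within 0.06.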

How the data were processed

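The non-normalized table that the authors deposited holds a linear intensity for each probe on each array, per the file headers. Next to it the authors deposited a detection p-value, also per the file headers. GenomeStudio, without a version, stands in the labels per the submitters' processing notes. A second deposited table holds processed intensity values with a floor of 10, whose making is not given in the sources used here, and it served as an alternative. RNA was amplified with a biotin label, per the labels' protocols.

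The non-normalized intensity was corrected by normexp, with background estimated from the detection p-values and 16 added, then quantile normalized and taken to log2 in limma 3.58.1 (R 4.3.3). These steps were tested on simulated data, in which only probes of middle signal were changed, each by more than 2-fold. The brightest and dimmest probes and differences near 2-fold were not among those changed. Counting used Python 3.11.15 with pandas 2.3.3 and numpy 2.4.6. The platform annotation gave 23978 probes 1 symbol, of which 0 differed from a current gene table, and listed none for 1719. If the dimmer array did not detect a gene, its fold is a lower bound, set against the higher of its own signal and the lowest detected signal there, 5.13, 5.13 and 5.14 in GFP high, low and negative cells.

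Counts at 2-fold cover genes detected on either array compared. The members and lists were chosen with earlier results of these data known. All members were named. From the wider lists the rule took up to 3 highest and 3 lowest genes per comparison and the largest difference of each list. Tubg1, Tuba1b and the marker genes were named outside it after their values were seen. With 1 array per group, the number of arrays limits the precision and no test was made.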

Additional observations from a re-analysis of the deposited data

How the results depend on the processing

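The member counts and medians were recomputed with an offset of 50, without normexp, with median scaling, in the authors' value table, with the mean over detected probes, with a detection p-value under 0.05, with genes detected on both arrays and with undetected genes kept. Counts of members stayed within 1.5 times their value under all 8, with 4 in place of 5 for GFP high against negative cells under an offset of 50, without normexp, with median scaling and with the mean over probes, and no result changed sign among those past 2-fold. The members' median for GFP high against negative was 0.62 when undetected genes were kept. Without normexp the wider lists had 7 genes higher and 7 lower in GFP high against negative cells, 4 lower in GFP high against low and 4 higher in GFP low against negative. With an offset of 50 the last 2 counts were 5 and 5. In the authors' values 2 were higher in GFP high against low and 2 lower in GFP low against negative. Over all genes, the counts higher and lower in GFP high against negative cells were 602 and 851, but 356 and 567 with an offset of 50, 259 and 437 without normexp and 904 and 1186 in the authors' value table. In GFP high against low they were 93 and 351, 49 and 199, and 37 and 145, and 300 and 600 in the authors' value table. In GFP low against negative they were 287 and 228, 165 and 107, and 105 and 77, and 513 and 544 in that table. Tubb2b for GFP high against negative was 0.62 and Tubb5 0.71 in the authors' value table, and Tubb2b was 1.35 without its brightest probe, an alternative chosen after seeing the data. The mean over detected probes gave GFP high against negative a log2 difference of 0.99 for Tubb2b, 1.66 for Map2 and 0.42 for Map1b. The cause of these moves was not tested. No paired analysis was possible because each group has 1 array.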
